A study of Mus musculus with 7 samples.

Results

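The S100 genes and annexins are families of calcium-binding proteins that macrophages express. Their transcripts were followed in Tim4+ resident macrophages of the mouse peritoneal cavity, in steady state and on day 12 after m204 MTO was injected. The members were the protein-coding rows of the count table whose symbol is that of an S100 gene, an annexin gene or S100pbp, 29 of the 57010 rows: 16 S100 genes, 12 annexin genes and S100pbp, whose product was named for binding the human protein S100P and is not itself an S100 protein. The steady-state group held 3 libraries of control C57BL/6 mice, and the day 12 group held 4 libraries of C57BL/6 mice that had received m204 MTO, an abbreviation that the labels do not spell out. All cells had been sorted alive by staining for Tim4, CD11b and MHC class II, so that cells without Tim4 on their surface were left out of both groups. The title of the series places the study in peritoneal colorectal cancer. The age and sex of the mice, the number of mice behind a library and any mock injection of the controls are not stated in the labels.

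S100 proteins are small proteins with a pair of EF-hand loops that change shape when they bind calcium. They act inside the cell on the cytoskeleton and on partner proteins, and some are released and signal to other cells through receptors such as TLR4 and RAGE. Annexins are calcium-dependent proteins that bind acidic phospholipids of membranes, with roles in membrane repair, vesicle traffic and the shut-down of inflammation. Members of the families bind each other: S100A10 binds annexin A2 in a complex at the plasma membrane, S100A11 binds annexin A1, and S100A6 binds annexin A11, among others. In macrophages annexin A1 is known as a ligand of formyl peptide receptors, and annexin A5 as a binder of phosphatidylserine, the lipid that Tim4 recognises on dying cells.

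Each library had between 32077050 and 38586694 counts, so that 3 counts, taken here as the floor, equalled 0.0754 to 0.0958 CPM (counts scaled to library size). Levels are CPM after TMM normalisation. Means are given ± SD, with n = 3 in steady state and n = 4 at day 12, unless a single library is named. A gene passed when its adjusted p in edgeR's quasi-likelihood test was under 0.05 over all 15981 genes tested. All 10 macrophage markers examined were detected in all libraries and summed to 27561 to 29238 CPM in steady state and 30769 to 31597 CPM at day 12, most of it from Prg4 and Alox15. Of these 10 markers, 4 rose and 2 fell: Timd4, the gene of the sorting marker Tim4, went from a mean of 963 to 495 CPM, at a log2 fold change of -0.96 (adjusted p = 0.00484), and Csf1r from 2025 to 1505 CPM, at -0.43 (adjusted p = 0.0304). Markers of other cells were low beside these. The largest sums were those of neutrophil markers, 433 to 451 CPM in steady state and 109 to 202 CPM at day 12, nearly all Csf3r. Monocyte markers followed, with 193 to 272 and 71.9 to 282 CPM, Hp being the most abundant. Of 7 tested, 1 (Treml4) rose and 2 (Ccr2 and Spn) fell. Treml4 lay under the filter on low counts, 0.276 CPM, in all steady-state libraries and entered the test through day 12 alone. B cell markers summed to 6.78 to 10.5 CPM in steady state and 21.7 to 48.4 CPM at day 12, where 6 of 9 rose. Among these, Ebf1 and Fcrla lay under that filter in all steady-state libraries. T and NK cell markers summed to 1.40 to 2.05 and 1.46 to 4.98 CPM, and 2 of 3 tested rose. These were Lck and Gzma, which lay under that filter in all steady-state libraries and entered the test through day 12 alone. Among all genes tested 10.1% rose and 10.2% fell, and no marker list was compared with these shares by a test. Eosinophil and mast cell markers summed to 1.25 to 1.62 and 0.348 to 1.76 CPM, with Prg2 and Epx at 0. The libraries of both groups are separate samples by their labels, and the extract protocol calls them biological replicates without naming animals. These are bulk samples, in which fewer cells that express a gene and less RNA of it per cell cannot be told apart.

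Of the 29 members, 17 had enough reads to be tested, and each of these 17 lay above the filter on low counts in all 7 libraries. Among them 2 rose (Anxa2 and Anxa3) and 4 fell (Anxa5, S100a4, S100a11 and S100pbp). The 6 calls among 17 came to 35.3%, against 20.3% of all genes tested, a comparison of shares that was not tested. Over all genes 10.1% were called higher and 10.2% lower. The groups did not overlap for 5 members that were higher and 5 that were lower at day 12, where the same was seen in 16.5% and 18.5% of all genes tested, or 35.0% in either direction. Of the members called, 0 were at least 2-fold higher and 3 (Anxa5, S100a4 and S100a11) at least 2-fold lower, against 5.61% and 4.46% of all genes tested. The median log2 fold change was 0.22 over 9 tested annexin genes and -0.13 over 7 tested S100 genes, against 0.0031 over all genes tested. The calls of Anxa2, Anxa5, S100a4 and S100pbp were kept in each of 15 other ways of processing the counts, those of Anxa3 and S100a11 were not.

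**Figure D1:**
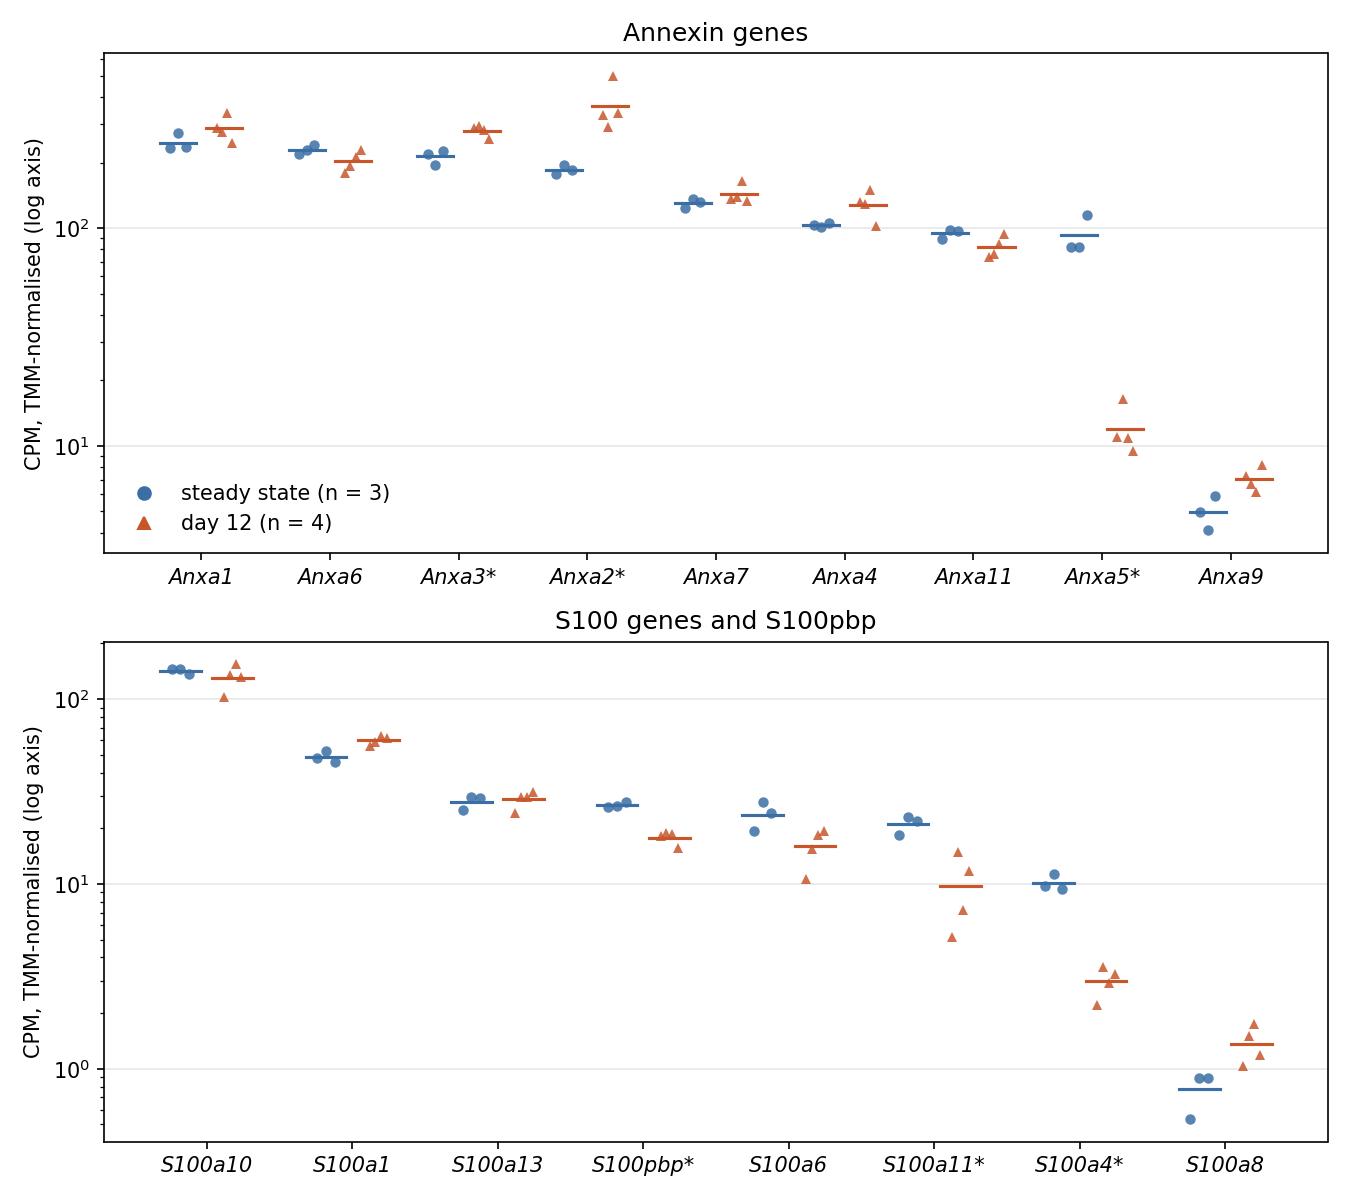
TMM-normalised CPM on a log axis of the 17 tested members in each library, annexin genes above and S100 genes with S100pbp below, ordered by their steady-state mean. Circles are the 3 steady-state and triangles the 4 day 12 libraries, bars are group means, and an asterisk marks an adjusted p under 0.05. The largest gap is that of Anxa5, from 81.7 to 115 CPM in steady state to 9.46 to 16.3 CPM at day 12.

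**Figure D2:**
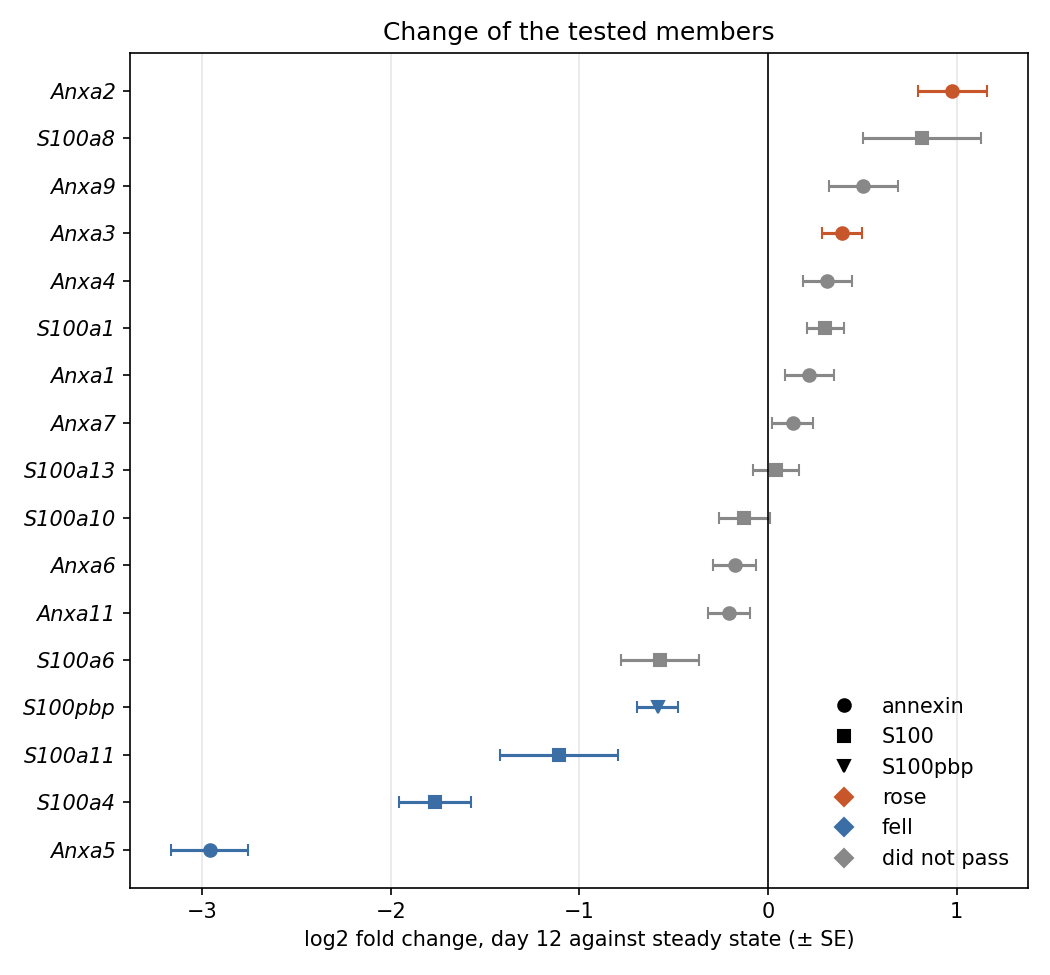
Log2 fold change of day 12 against steady state for the 17 tested members, with bars of 1 SE from edgeR. Circles are annexin genes, squares S100 genes and the triangle S100pbp; members that passed are coloured by direction. The values run from -2.96 for Anxa5 to 0.98 for Anxa2.

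Anxa5 encodes annexin A5, the phosphatidylserine binder whose labelled form is widely used to stain dying cells. It fell more than any other tested member. Steady-state replicates 1, 2 and 3 held 81.8, 81.7 and 115 CPM of Anxa5, and day 12 replicates 1, 2, 3 and 4 held 10.9, 16.3, 10.9 and 9.46 CPM. The groups were far apart, with the highest day 12 library well below the lowest of steady state. The mean went from 92.9 ± 19.2 to 11.9 ± 3.03 CPM, a 7.78-fold fall (log2 fold change -2.96, SE 0.21, adjusted p = 6.86e-05). By its p-value Anxa5 stood at rank 25 of the 15981 genes tested. Leaving out 1 library at a time gave log2 fold changes of -3.12 to -2.78. Anxa5 (ENSMUSG00000027712) lies on the minus strand of chromosome 3 from 36503072 to 36530043 in GRCm39, and the only other gene over that stretch in the table was a microRNA gene without a read.

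The share of all annexin reads that came from Anxa5 went from between 6.23% and 8.56% in steady state to between 0.624% and 1.15% at day 12. Over the same libraries the summed CPM of the 12 annexin genes was 1251, 1312 and 1345 in steady state and 1448, 1421, 1749.7 and 1416 at day 12. The share of Anxa2 in that sum was 14.1%, 14.9% and 13.8% in steady state and 23.0%, 20.4%, 28.7% and 23.8% at day 12. The sum was not lower in any day 12 library, and within it the place of Anxa5 shrank and that of Anxa2 grew.

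The promoters of 4 of the 6 members that passed are shown, because these members went in different directions in the same cells. They are RefSeq windows of 300 bases in GRCm38.p6, from 250 before to 50 after the start site, a build other than the GRCm39 of the counts, and were matched by symbol for 23 of the 29 members. Those of S100pbp, which also passed, held no match to the motifs searched and are not shown, and Anxa3 had no window. Sequences run 5′ to 3′ on the strand of the gene, and capitals mark matches to the motifs searched. The windows are chr3:36475838-36476137 (minus strand) for Anxa5, chr3:90603520-90603819 (plus strand) for S100a4, chr3:93520246-93520545 (plus strand) for S100a11 and chr9:69453433-69453732 (plus strand) for Anxa2.
Anxa5: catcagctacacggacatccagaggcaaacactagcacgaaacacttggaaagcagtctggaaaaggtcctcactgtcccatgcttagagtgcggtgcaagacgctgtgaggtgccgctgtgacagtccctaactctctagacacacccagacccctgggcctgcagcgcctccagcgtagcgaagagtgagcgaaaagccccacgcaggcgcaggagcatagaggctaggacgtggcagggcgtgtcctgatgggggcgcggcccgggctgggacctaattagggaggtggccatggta
S100a4: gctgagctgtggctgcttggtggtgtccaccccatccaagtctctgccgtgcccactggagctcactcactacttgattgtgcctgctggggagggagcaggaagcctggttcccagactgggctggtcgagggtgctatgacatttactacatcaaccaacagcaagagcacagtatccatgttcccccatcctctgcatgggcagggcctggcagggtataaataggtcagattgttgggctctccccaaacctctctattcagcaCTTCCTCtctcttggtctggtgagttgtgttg
S100a11: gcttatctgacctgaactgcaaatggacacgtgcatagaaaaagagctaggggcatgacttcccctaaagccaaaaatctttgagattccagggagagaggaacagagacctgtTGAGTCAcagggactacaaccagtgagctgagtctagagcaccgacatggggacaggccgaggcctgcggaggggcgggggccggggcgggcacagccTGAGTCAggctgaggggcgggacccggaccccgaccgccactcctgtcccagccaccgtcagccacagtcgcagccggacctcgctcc
Anxa2: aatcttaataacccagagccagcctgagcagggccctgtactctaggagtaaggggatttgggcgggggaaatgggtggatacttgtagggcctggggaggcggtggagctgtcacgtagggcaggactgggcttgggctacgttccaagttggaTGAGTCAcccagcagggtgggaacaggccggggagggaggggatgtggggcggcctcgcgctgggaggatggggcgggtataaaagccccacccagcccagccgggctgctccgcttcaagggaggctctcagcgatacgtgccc

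The motifs were searched as exact letters on both strands, and matches of different motifs did not overlap in these 4 windows. They were TGACTCA, the AP-1 type, found in 5.2% of 32851 promoter windows of this length, the STAT6 type, TTC and GAA with 4 free bases between them, in 6.95%, and GAGGAAG, the PU.1 type, in 13.6%. S100a11, which fell, had 2 AP-1 type matches, starting 136 and 38 bases before the start site, and Anxa2, which rose, had 1 that started 95 bases before it. S100a4 had 1 PU.1 type match, starting 18 bases after the start site. The Anxa5 window held none of these letters. Of 14 tested members with a window, 2 held the AP-1 type, 3 the PU.1 type and 0 the STAT6 type. The Anxa5, S100a11 and Anxa2 windows had 16, 15 and 13 CpG dinucleotides and the S100a4 window 2, where the median window had 7. These matches are descriptions of letters, and no factor was measured at them.

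Anxa2 encodes annexin A2, which binds plasminogen and actin at the cell surface together with S100A10, its light chain. It rose, with 176, 195 and 185 CPM in steady-state replicates 1, 2 and 3 and 333, 290.1, 502 and 338 CPM in day 12 replicates 1, 2, 3 and 4. All 4 day 12 libraries lay above all 3 of steady state, and day 12 replicate 3 stood highest. The mean went from 186 ± 9.34 to 365 ± 93.2 CPM, a 1.97-fold rise (log2 fold change 0.98, SE 0.18, adjusted p = 0.00547). Its log2 fold change was at least 0.79 whichever library was left out. Anxa2 (ENSMUSG00000032231) lies on the plus strand of chromosome 9 from 69360902 to 69399077 in GRCm39.

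S100a10 encodes the partner of annexin A2, an S100 protein that no longer binds calcium. S100a10 did not pass, and a difference between its change and that of Anxa2 was not tested. It stood at 146, 146 and 136 CPM in steady state and at 103, 134, 154 and 131 CPM at day 12, so that the groups overlapped. The fold change was 0.916, with a 95% interval of 0.742 to 1.13 (adjusted p = 0.556), and an Anxa2-like rise of 1.97-fold lies outside that interval. S100a10 made up 50.2% to 54.6% of the summed S100 CPM in steady state and 50.3% to 55.5% at day 12.

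Between genes, levels are compared per length, as CPM per kilobase of exon with exon lengths of GENCODE M21. These lengths join all annotated exons of a gene, 3731 bases for Anxa2 and 1212 bases for S100a10. The size of a ratio between genes depends on that choice. On that scale Anxa2 stood at 0.394, 0.435 and 0.441 times the level of S100a10 in the steady-state libraries and at 1.05, 0.702, 1.06 and 0.835 times at day 12. The day 12 ratios were all above the steady-state ones, an order that does not depend on the lengths used. The near-equal levels of both genes in day 12 replicates 1 and 3 hold only for these lengths. The ratio is taken within a library and so does not depend on the scaling between libraries.

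**Figure D3:**
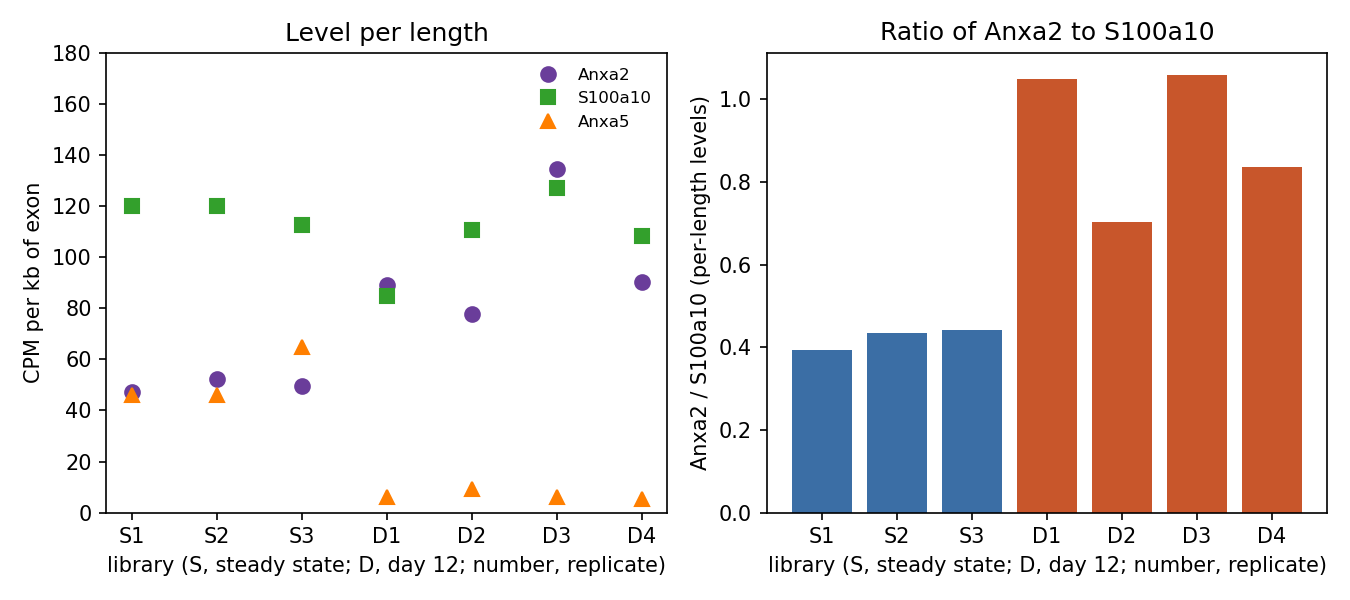
Left, CPM per kilobase of exon of Anxa2 (circles), S100a10 (squares) and Anxa5 (triangles) in each library; right, the ratio of Anxa2 to S100a10 on the same scale. Bars are single libraries, steady state in blue and day 12 in orange; the ratio runs from 0.394 to 0.441 in steady state and from 0.702 to 1.06 at day 12.

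Anxa3 was the other annexin gene that rose, by a smaller step. Annexin A3 is abundant in neutrophils and macrophages, where it associates with granules and phagosomes. Anxa3 held 219, 195 and 227 CPM in steady state and 288, 294, 282 and 256 CPM at day 12, without overlap. The mean went from 213 ± 16.9 to 279.8 ± 16.7 CPM, at a log2 fold change of 0.39 (SE 0.11) and an adjusted p of 0.0288. Anxa3 no longer passed when steady-state replicate 1 (adjusted p = 0.0824), 2 (0.147) or 3 (0.0774) or day 12 replicate 1 (0.0624) or 3 (0.0567) was left out, or when low counts were not filtered (0.0682). Anxa3 (ENSMUSG00000029484) lies on the plus strand of chromosome 5 from 96941198 to 96993825 in GRCm39.

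The other annexin genes did not pass. Anxa1, the ligand of formyl peptide receptors, held 233, 273 and 235 CPM in steady state and 288, 276, 338 and 247 CPM at day 12. Its groups overlapped through steady-state replicate 2, and its fold change of 1.16 had a 95% interval of 0.951 to 1.42 (adjusted p = 0.272). Anxa6, which links membranes to cholesterol transport, held 220.3, 228 and 241 CPM in steady state and 179, 192, 213 and 228 CPM at day 12 (log2 fold change -0.18, adjusted p = 0.305). Anxa4, an annexin of secretory epithelia, held 102 to 105 CPM in steady state and 132, 129, 149.8 and 103 CPM at day 12 (log2 fold change 0.31, adjusted p = 0.124). Day 12 replicate 4 was within the steady-state range of Anxa4 and the other day 12 libraries were above it. Without day 12 replicate 4 Anxa4 passed, with a log2 fold change of 0.41 and an adjusted p of 0.00622.

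Anxa7, which takes part in membrane fusion, held 124 to 136 CPM in steady state and 133 to 164 CPM at day 12 (log2 fold change 0.13, 95% interval -0.11 to 0.38, adjusted p = 0.434). Anxa11, an RNA-granule and lysosome tether, held 89.0 to 98.1 CPM and 73.7 to 93.9 CPM (log2 fold change -0.21, adjusted p = 0.224). Without day 12 replicate 4, the highest of its group, Anxa11 passed with a log2 fold change of -0.28 (adjusted p = 0.0308). Anxa9, an annexin that has lost the usual calcium sites, was low, at 4.09 to 5.88 CPM in steady state and 6.13 to 8.18 CPM at day 12. The groups of Anxa9 did not overlap, but the change did not pass (log2 fold change 0.51, adjusted p = 0.0837). Its row overlaps by 101 bases the lncRNA gene 6330562C20Rik on the same strand, which had 39, 44 and 37 reads in steady state and 84, 91, 63 and 116 at day 12. It also overlaps by 71 bases the gene Mindy1 on the other strand, which had 3539 to 4145 reads, and although the kit marks strand, the labels do not say whether the counting used it.

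S100a4 encodes a protein that binds non-muscle myosin and is known for promoting cell motility. It fell more than any other tested S100 gene. Steady-state replicates 1, 2 and 3 held 9.73, 11.3 and 9.42 CPM, and day 12 replicates 1, 2, 3 and 4 held 2.23, 3.57, 2.89 and 3.25 CPM. All day 12 libraries were far below those of steady state. The fall was 3.40-fold (log2 fold change -1.77, SE 0.19, adjusted p = 0.000415), and leaving out 1 library at a time gave -1.83 to -1.63. S100a4 (ENSMUSG00000001020) lies on the plus strand of chromosome 3 from 90511078 to 90513352 in GRCm39. It shares 2115 bases with the predicted gene Gm42674 on the same strand, which had no read. How reads in the shared bases were assigned was not tested, and the level of S100a4 may depend on it.

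S100a11, whose product is a partner of annexin A1, fell with a wide spread at day 12. It held 18.3, 23.0 and 21.8 CPM in steady state and 5.19, 14.8, 7.23 and 11.8 CPM at day 12. The groups did not overlap, and day 12 replicates 2 and 4 kept more of the transcript than replicates 1 and 3. The mean went from 21.0 ± 2.42 to 9.76 ± 4.35 CPM, at a log2 fold change of -1.11 (SE 0.31) and an adjusted p of 0.0366. It fell short of the threshold when steady-state replicate 1 (adjusted p = 0.0813), 2 (0.116) or 3 (0.103) or day 12 replicate 3 (0.0701) or 4 (0.0694) was left out, or when low counts were not filtered (0.0928). A sum of 8 monocyte markers was 222 and 282 CPM in day 12 replicates 2 and 4, against 77.8 and 71.9 CPM in replicates 1 and 3 and 193 to 272 CPM in steady state. Haptoglobin (Hp) was the most abundant of these markers, and the part of such cells in the S100a11 result was not tested. S100a11 (ENSMUSG00000027907) lies on the plus strand of chromosome 3 from 93427795 to 93433594 in GRCm39.

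S100pbp, a nuclear protein gene, held 25.9, 26.4 and 27.9 CPM in steady state and 18.3, 18.8, 18.5 and 15.7 CPM at day 12. Its libraries were tight within each group and did not overlap. The log2 fold change was -0.59 (SE 0.11, adjusted p = 0.00496), with -0.60 to -0.53 when 1 library at a time was left out. S100pbp (ENSMUSG00000040928) lies on the minus strand of chromosome 4 from 129041798 to 129083520 in GRCm39.

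S100a6, or calcyclin, a partner of annexin A11 that is linked to proliferating cells, held 19.43, 27.7 and 24.1 CPM in steady state and 10.6, 15.5, 18.3 and 19.42 CPM at day 12. The day 12 libraries were all lower, the highest by a hair, and the change did not pass (log2 fold change -0.57, SE 0.21, adjusted p = 0.0836). S100a1, best known as a regulator of calcium handling in heart muscle, held 47.9, 52.1 and 45.5 CPM in steady state and 55.6, 58.9, 63.2 and 61.9 CPM at day 12. Its groups did not overlap, and its adjusted p was 0.0551 at a log2 fold change of 0.30. S100a13, which takes part in the release of proteins without a signal peptide, held 25.0, 29.5 and 29.1 CPM and 24.3, 29.6, 29.5 and 31.3 CPM (fold change 1.03, 95% interval 0.851 to 1.24, adjusted p = 0.849).

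S100a8 and S100a9 encode the subunits of calprotectin, the abundant protein of neutrophils and inflammatory monocytes. Neither was abundant here. S100a8 had 18, 32 and 28 reads in steady state and 39, 60, 66 and 41 at day 12, which is 0.775 ± 0.209 against 1.37 ± 0.316 CPM. The groups did not overlap, and the change did not pass (log2 fold change 0.82, SE 0.31, adjusted p = 0.0982). S100a9 had no read in steady state, and 0, 1, 8 and 29 reads in day 12 replicates 1, 2, 3 and 4, too few for the main test. Against a floor of 3 counts over the whole steady-state group, S100a9 was at least 8.51-fold higher at day 12. Without day 12 replicate 4 there were 9 reads left and no more than an at least 2.62-fold difference.

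On S100a9 the tools differed. DESeq2 gave it an adjusted p of 0.0187 and edgeR without a filter on low counts gave 0.235. Of 11 neutrophil markers, 0 rose and 2 fell among the 4 tested, and Ly6g and Mpo had no read. The granule gene Ngp had 0, 0, 1 and 7 reads and the chemokine receptor gene Cxcr2 0, 1, 0 and 4 reads in day 12 replicates 1, 2, 3 and 4, and both had 0 in steady state. Ltf, a further granule gene, had 2, 3, 8 and 8 reads at day 12, Retnlg had 2, 1, 6 and 4, and both had 0 in steady state. The other way, the collagenase gene Mmp8 had 25, 41 and 41 reads in steady state and 2, 2, 2 and 1 at day 12 (log2 fold change -4.42, adjusted p = 0.000233). Mmp8 lay under the filter on low counts in every day 12 library and entered the test through steady state alone. Camp had 4, 0 and 0 reads in steady state and 0 at day 12. The sum of all 11 neutrophil markers was 433 to 451 CPM in steady state and 109 to 202 CPM at day 12, nearly all of it from Csf3r. The part of neutrophils in the S100a9 reads was not tested.

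Of the 16 S100 genes, 13 lie on chromosome 3, and S100b, S100z and S100g lie on chromosomes 10, 13 and X. In the table, 11 of the 13 fill 184688 bases of chromosome 3 (90418341 to 90603028, GRCm39), and S100a11 and S100a10 follow 2824766 bases further on. Transcripts along this cluster were patchy in both groups. S100a1 and S100a13 at its start were well above the floor, S100a14, S100a16, S100a2 and S100a3 were at or near 0, S100a4 and S100a6 were expressed on either side of S100a5, which had 1 read in all, and S100a8 and S100a9 were low. S100a1 and S100a13 point away from each other with 42 bases between them, and their RefSeq promoter windows overlap. S100a1 and S100a13 had log2 fold changes of 0.30 and 0.04 over a start region that they share.

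**Figure D4:**
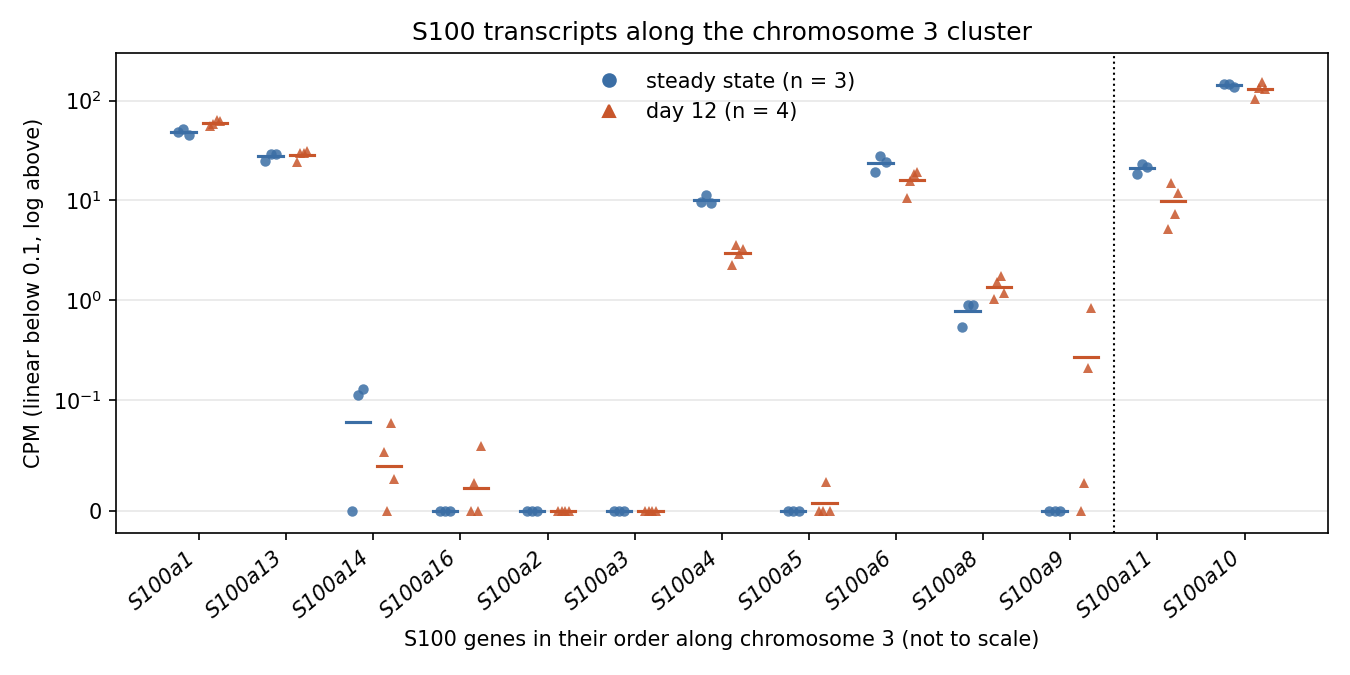
CPM of the 13 S100 genes of chromosome 3 in their order along it, on an axis that is linear below 0.1 and logarithmic above. Circles are the 3 steady-state and triangles the 4 day 12 libraries, bars are means, and the dotted line stands for the gap of 2824766 bases. S100a2, S100a3 and S100a5, at or near 0, lie on either side of S100a4, whose mean was 10.2 in steady state and 2.98 at day 12.

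The members not described so far had few reads or none. Anxa10, Anxa13, S100a2, S100a3, S100g and S100z had no read in any library. S100a5, S100a14, S100a16, S100b and Anxa8 had reads below the filter, with 1, 14, 3, 10 and 17 reads over all libraries. S100b overlaps by 1731 bases the gene Dip2a on the other strand, which had 713 to 1105 reads a library, and the source of its 10 reads was not tested. Anxa8, a gene of epithelial and mesothelial cells, had 1 read in steady state and 3, 4, 4 and 5 reads in day 12 replicates 1, 2, 3 and 4. It did not pass in DESeq2 (adjusted p = 0.136) or in edgeR without a filter on low counts (0.155). Of the markers of mesothelial cells and fibroblasts, Msln, Upk1b and Lum had no read, and the sum of 10 markers was 0 to 0.224 CPM in steady state and 0.880 to 1.39 CPM at day 12. The 1 tested, Col1a2, rose (log2 fold change 4.47, adjusted p = 0.00500), from a mean of 0.0106 to 0.295 CPM. Of the epithelial markers, which would include cells of a carcinoma, Krt20, Cdx2 and Lgr5 had no read, and the sum of 11 was 2.04 to 2.55 CPM in steady state and 4.67 to 6.45 CPM at day 12, most of it Lgals4 and Cdh1. Of 3 tested, Cdh1 rose, with 5, 4 and 4 reads in steady state and 54, 61, 84 and 98 at day 12 (log2 fold change 3.92, adjusted p = 0.000295). Krt18 (adjusted p = 0.0697) and Lgals4 (0.0898) did not pass. Col1a2, Cdh1 and Krt18 all lay under the filter on low counts in every steady-state library and entered the test through day 12 alone. The part of such cells in the reads of Anxa8 and the other members was not tested.

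Ordered by level per length, S100a10 came first in both groups, at 118 ± 4.37 CPM per kilobase in steady state and 108 ± 17.3 at day 12, followed by Anxa1 (84.8 ± 7.67 and 98.7 ± 13.1). Day 12 levels of S100a10, Anxa1 and Anxa2 (98.0 ± 25.0) did not differ beyond their spread. Anxa2 moved from order 7 to order 3 and Anxa5 from order 6 to order 13 among the 17 tested members. Levels and order between genes depend on the joined exon lengths, and other lengths were not tried. At the lower end stood S100pbp, Anxa9 and S100a8, each under 4 CPM per kilobase in every library.

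Receptors for these proteins went both ways. Of 10 tested genes on a list of receptors for S100 proteins and annexin A1, 3 rose and 1 fell, with a median log2 fold change of 0.0056. Among all genes tested 10.1% rose and 10.2% fell, and the shares were not compared by a test. Tlr4, which S100A8 and S100A9 can bind, rose from 90.0 ± 3.24 to 182 ± 41.5 CPM, at a log2 fold change of 1.01 (SE 0.18) and an adjusted p of 0.00498. The adhesion molecule genes Alcam (log2 fold change 0.87, adjusted p = 0.0226) and Mcam (2.27, adjusted p = 0.0151, but at 0.199 ± 0.0352 and 0.972 ± 0.563 CPM) rose too. Mcam lay under the filter on low counts in every steady-state library and entered the test through day 12 alone. Alcam no longer passed when steady-state replicate 1 (adjusted p = 0.0816) or 3 (0.103) or day 12 replicate 1 (0.0520) was left out, and Mcam without steady-state replicate 1 (0.0504), 2 (0.0706) or 3 (0.0646). The scavenger receptor gene Cd36, the 1 member of the list that fell and chosen here after its values were seen, went from 789 ± 35.2 to 50.7 ± 64.3 CPM, at a log2 fold change of -3.96 and an adjusted p of 0.0284. Its value lay at -5.35 without day 12 replicate 2, which kept 146 CPM, and Cd36 missed the threshold when steady-state replicate 1 (0.0644), 2 (0.0709) or 3 (0.0744) or day 12 replicate 1 (0.0694) was left out, or when low counts were not filtered (0.0980). Fpr1 and Fpr2, formyl peptide receptor genes picked with their values known, missed the threshold. Fpr1 held 29.8, 42.0 and 34.8 CPM in steady state and 0.901, 10.6, 0.763 and 7.23 CPM at day 12, without overlap (log2 fold change -2.86, adjusted p = 0.0568). Fpr2 held 15.2, 14.2 and 11.1 CPM in steady state and 2.52, 23.2, 0.973 and 17.1 CPM at day 12, with overlap (log2 fold change -0.31, adjusted p = 0.856). In both genes day 12 replicates 2 and 4 were the higher ones, as in the sum of monocyte markers, whose part was not tested. The RAGE gene Ager, also chosen after its values were seen, was below 1 CPM on average in both groups (0.593 ± 0.173 and 0.477 ± 0.124 CPM).

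Of 14 tested genes for annexin partners and membrane repair, 3 rose and 0 fell, with a median log2 fold change of 0.18. Over all genes tested 10.1% rose and 10.2% fell, or 20.3% in either direction. At an unadjusted p under 0.05 edgeR had 5 of the 14, about the share of all genes tested (5421 of 15981 in either direction). All 5 were higher, and DESeq2 and limma-voom also called 0 lower. Trim72, which encodes the membrane repair protein MG53, rose from 2.53 ± 0.560 to 32.3 ± 8.55 CPM, at a log2 fold change of 3.67 (SE 0.26) and an adjusted p of 7.17e-05. Plgrkt, a plasminogen receptor gene, rose from 40.5 ± 1.14 to 78.9 ± 6.99 CPM, at a log2 fold change of 0.96 (SE 0.10) and an adjusted p of 0.000383. Ahnak2 rose from 0.654 ± 0.279 to 107 ± 72.2 CPM, with 28.6 to 203 CPM among day 12 libraries, whereas its relative Ahnak, chosen after its values were seen, a large scaffold that binds the complex of annexin A2 and S100A10, stood at 3381 ± 451 and 3110 ± 961 CPM and did not pass (adjusted p = 0.759).

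Genes that move phosphatidylserine across the membrane, the lipid bound by annexin A5, went both ways. Of 8 tested, 1 rose and 2 fell, with a median log2 fold change of 0.034, where 10.1% and 10.2% of all genes tested did. The scramblase gene Ano6 rose from 254 ± 12.5 to 355 ± 20.2 CPM, at a log2 fold change of 0.48 and an adjusted p of 0.00951. The flippase gene Atp11a (log2 fold change -0.39, adjusted p = 0.0212) and Plscr4 (-0.82, adjusted p = 0.0333) fell. Without steady-state replicate 1 or 3 the adjusted p was 0.0594 or 0.0531 for Ano6 and 0.114 or 0.122 for Plscr4, which also lost its call without day 12 replicate 2 (0.0746). Atp11a missed the threshold when steady-state replicate 1 (0.0939), 2 (0.0851) or 3 (0.0940) or day 12 replicate 1 (0.0743), 2 (0.0605) or 3 (0.0525) was left out.

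Of 23 tested genes for other EF-hand calcium sensors, 1 rose and 2 fell (median log2 fold change 0.084), where 10.1% and 10.2% of all genes tested did. Cib1, a calcium- and integrin-binding protein gene, rose (log2 fold change 0.51, adjusted p = 0.0189), whereas Aif1, the macrophage marker IBA1 (from 6.17 ± 1.52 to 1.92 ± 1.27 CPM, adjusted p = 0.0221), and Rcn3, of the secretory pathway (from 4.73 ± 1.02 to 1.57 ± 0.369 CPM, adjusted p = 0.00283), fell. Cib1 missed the threshold when steady-state replicate 1 (0.0866) or 2 (0.0835) was left out, and Aif1 when steady-state replicate 1 (0.0794) or 3 (0.0851) or day 12 replicate 1 (0.0579) or 4 (0.0574) was.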

How the data were processed

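RNA was measured in 7 libraries of sorted peritoneal macrophages, made with a strand-marking poly(A) kit from 30 ng of RNA and sequenced as single reads of 100 bases, per the labels' protocols. The deposited table holds raw read counts per gene, made by the authors with STAR 2.7.11a, SAMtools 1.10 and featureCounts of Subread 2.0.6 on GRCm39, per the submitters' processing notes. Neither the labels nor the notes state how featureCounts treated strand and multi-mapping reads, so reads of near-identical family members could be split. The extract protocol speaks of 3 replicates per condition, and the titles give 4 for day 12.

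Counts were tested with edgeR 4.0.16 in R 4.3.3 (TMM factors, filterByExpr with a minimum count of 10 and a minimum total of 15, robust quasi-likelihood fit, group as the only term), with Benjamini-Hochberg adjustment over all genes tested and a threshold of 0.05. On simulated data the script recovered 21.5% of 1.5-fold, 66.7% of 2-fold and 95.2% of 4-fold changes, with 13 false among 135 calls. Changes of 1.5-fold were thus mostly missed there, and the false share exceeded the 0.05 aimed at. The simulation changed 65, 72 and 63 of 15645 tested genes, where the data gave 3242 calls. Its recovery rates need not hold for the data. Alternatives were other scaling factors, DESeq2 1.42.0, limma-voom (limma 3.58.1), other filters, a replicate block, protein-coding rows only, and each library left out in turn. Levels per length used GENCODE M21 exon lengths, with all annotated exons of a gene joined, matched by Ensembl ID for 17 of 17 tested members.

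The members and the gene lists were chosen with earlier results of these data known. All members are described. From each pathway list the 3 tested genes of lowest p were to be named, and others are marked as chosen after their values were seen. Intervals and floors cover counting error only where they come from counts of 1 library or group. The extract protocol calls the libraries biological replicates, but the labels name no animals. The p-values reflect the spread among libraries, and how much of it lies between animals is not known. A gene of the EF-hand list and a motif are not reported here.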

Additional observations from a re-analysis of the deposited data

Results flagged for a closer look

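Among 25 groups of 4 day 12 values examined for 1 library far from the others, 2 passed Dixon's 95% critical value for groups of 4, where chance flags about 1 group in 20. For S100pbp at day 12, replicate 4 held 15.7 CPM, below the 18.3, 18.8 and 18.5 CPM of replicates 1, 2 and 3, with a Dixon ratio of 0.833. The summed annexin CPM at day 12 was 1749.7 in replicate 3, against 1448, 1421 and 1416 in replicates 1, 2 and 4, with a Dixon ratio of 0.903. Anxa2 held 502 CPM in that library, more than in any other.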

How the results depend on the processing

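Of the 12 members without a test, 6 had no read and 6 had too few. The number of members called higher, 2 in the report, was 4 with DESeq2, 1 when low counts were not filtered and 4 with a replicate block. The number called lower, 4, was 7 with the block. Receptors called lower, 1 in the report, numbered 2 with DESeq2, limma-voom, a filter of 1 CPM in 3 libraries or protein-coding rows only, and 0 without a filter or with the block. EF-hand sensors called higher, 1, numbered 2 with the 1 CPM filter and with the block. The log2 fold change of S100a13 turned from 0.04 to -0.0053 with the block, -0.0079 when steady-state replicate 1 and -0.00028 when day 12 replicate 4 was left out. It was highest, at 0.13, without day 12 replicate 1. The cause of these shifts was not tested.

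Leaving out 1 library at a time gave 857 to 2188 genes called higher and 904 to 2411 lower, the smaller numbers without a steady-state library, where 2 are left. Members called higher ranged from 1 to 4 (1 without any 1 steady-state replicate or day 12 replicate 1 or 3, and 4 without day 12 replicate 4) and lower from 3 to 4. The ranges were 1 to 3 higher and 0 to 2 lower for receptors, 3 to 4 and 0 to 0 for annexin partners, 0 to 1 and 0 to 2 for phosphatidylserine genes, and 0 to 2 and 1 to 3 for EF-hand sensors.

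Same-numbered libraries had correlations of -0.141, 0.00775 and 0.203 in their deviations from the group means. So few libraries cannot decide whether an equal number marks a pair. 1 of 3 steady-state libraries correlated best with its own number. In the block fit day 12 replicate 4 has no partner and adds nothing to the contrast. With the block S100a6 (log2 fold change -0.70, adjusted p = 0.00968), Anxa4 (0.00971), Anxa11 (0.0265), Anxa6 (0.0425) and S100a1 (0.0471) passed, and Alcam (0.0557), Cd36 (0.0654) and Aif1 (0.110) did not. S100a1 also passed in 5 other alternatives.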

Other observations

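The gene next to Anxa3 differed far more than Anxa3 itself. The lncRNA gene 1700016F12Rik, chosen after its values were seen, starts 3538 bases beyond Anxa3 on the same strand. It had 5, 1 and 4 reads in steady-state replicates 1, 2 and 3, and 1689, 1399, 1652 and 1896 reads in day 12 replicates 1, 2, 3 and 4. The groups were far apart, at means of 0.101 and 44.6 CPM (log2 fold change 8.76, SE 0.33, adjusted p = 3.35e-06 in edgeR's quasi-likelihood test). Whether any of these reads come from transcripts of Anxa3 was not tested.

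Among family members outside the selection rule, S100a7a had 4 reads over all libraries, and S100a7l2 and the pseudogene S100a11-ps had 0.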
